A study of Mus musculus with 2 samples.

Results

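The integrated stress response genes described here were 10 of 55536 annotated mouse genes, and were chosen by symbol in the GENCODE M21 annotation. They were the 4 kinases of eIF2 alpha (Eif2ak1, the haem-regulated kinase, with Eif2ak2, Eif2ak3 and Eif2ak4), the 2 regulatory subunits of the eIF2 alpha phosphatase (Ppp1r15a and Ppp1r15b), the transcription factors Atf4 and Ddit3, and the targets Trib3 and Asns. All 10 were found, and 11 entries of the annotation carried the 10 symbols because Ddit3 had 2. The samples were whole livers of healthy B6NCrl mouse embryos at 12.5 days, male and female mixed, with no treatment or allele named. Replicate 1 was a pool of 120 embryos and replicate 2 a pool of 88 embryos, so the spread between the libraries is a spread between pools and not between embryos. RNA was primed with oligo-dT from 10 ng of starting material, and fragments were made by tagmentation. There was 1 group, so no condition was compared and no p-value is given.

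Translation initiation needs the factor eIF2 in its GTP-bound form to bring the initiator tRNA to the ribosome. Each of the kinases phosphorylates the alpha subunit of eIF2, which blocks its recharging by eIF2B and lowers protein synthesis as a whole, while some mRNAs with upstream reading frames in their leaders, Atf4 among them, are translated more. In red cell precursors the haem-regulated kinase is held inactive by haem and is known for matching globin synthesis to haem supply, and the liver is the main site of red cell formation in the mouse embryo at mid-gestation.

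The libraries summed to 38293265 and 35399872 expected counts, and 4.99% and 5.40% of TPM, the deposited level per transcript length and library, were added spike-in RNA. TPM allows for length, so levels of different genes are set side by side below. Whether coverage was even along the transcripts was not tested. The labelled tissue was checked with marker lists: all 5 red cell markers and all 6 hepatic markers averaged 10 TPM or more, with list medians of 433 and 1044 TPM. Of the other cell types, 4 of 5 macrophage, 4 of 4 megakaryocyte, 2 of 4 endothelial and 2 of 4 mesenchymal markers averaged 10 TPM or more, against 0 of 4 neural and 0 of 4 lymphoid markers. Because whole tissue was sequenced, fewer cells of a type and less RNA per cell cannot be told apart for any level below.

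The median level of the members was above that of all protein-coding genes, but not every member was high. All 10 averaged 1 TPM or more, 6 averaged 10 TPM or more and 3 averaged 100 TPM or more; of the 21951 protein-coding genes, 54.5%, 32.1% and 5.4% did so. The median of the members was 34.6 TPM, and that of all protein-coding genes was 1.87 TPM. The latter include genes with little or no expression: 11953 of the 21951 averaged 1 TPM or more and 7057 averaged 10 TPM or more. Eif2ak2, Eif2ak4, Trib3 and Eif2ak3 averaged under 10 TPM and ranked 7247, 8161, 8649 and 9022. In falling order of mean level the members were Asns, Ppp1r15a, Atf4, Eif2ak1, Ppp1r15b, Ddit3, Eif2ak2, Eif2ak4, Trib3 and Eif2ak3. In 8 of the 9 neighbouring pairs the libraries of one gene did not overlap those of the next. The exception was Trib3 and Eif2ak3, whose means were 1.17-fold apart and whose libraries overlapped. This order is by gene level and differs by the highest coding transcript of each gene. Atf4, with 112 and 116 TPM, was then above Ppp1r15a, with 94.9 TPM in both libraries, and Eif2ak2 was last.

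**Figure D1:**
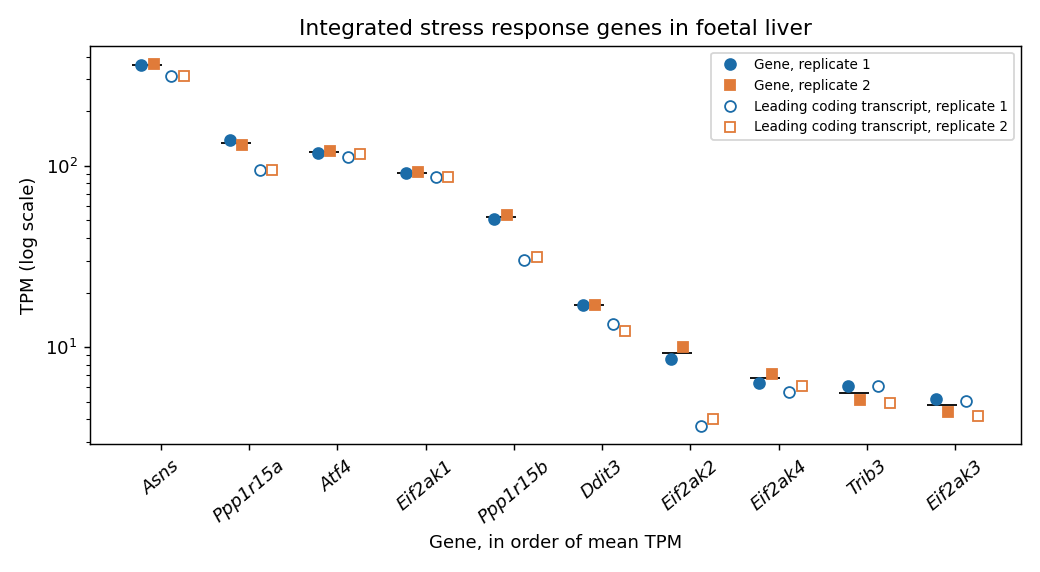
Level of each of the 10 genes in TPM on a log axis, with filled points for the gene in each library, a line at the gene mean and open points for the leading coding transcript. Asns is highest at a mean of 362 TPM, Eif2ak1 at 91.9 TPM stands apart from the other 3 kinases, and Trib3 and Eif2ak3 overlap at the bottom of the order.

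Eif2ak1 made up most of the kinase mRNA. This kinase, also called HRI, lies on the plus strand of chromosome 5 at 143817788 to 143904251 (mm10). It had 91.8 TPM in replicate 1 and 92.0 in replicate 2, or 91.9 ± 0.134 TPM (SD, n = 2), from 12143 and 11287 expected counts. It ranked 1293 of the 21951 protein-coding genes, above 94.1% of them. The libraries thus lay almost on one another, and the other kinases were all lower.

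Eif2ak2, or PKR, which is activated by double-stranded RNA, had 8.60 TPM in replicate 1 and 10.1 in replicate 2 (9.34 ± 1.04, SD, n = 2). Eif2ak4, or GCN2, which senses uncharged tRNA, had 6.34 and 7.10 TPM (6.72 ± 0.537, SD, n = 2). Eif2ak3, or PERK, the kinase in the membrane of the endoplasmic reticulum (ER), had 5.21 and 4.38 TPM (4.80 ± 0.587, SD, n = 2). Eif2ak2 and Eif2ak4 were the higher in replicate 2 and Eif2ak3 the higher in replicate 1, and no library of one of these kinases overlapped a library of another. Eif2ak2 lies on chromosome 17 at 78852564 to 78882573 (minus strand), Eif2ak3 on chromosome 6 at 70844515 to 70905245 (plus) and Eif2ak4 on chromosome 2 at 118388618 to 118475234 (plus).

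Within each library, Eif2ak1 held 82.0% and 81.0% of the summed TPM of the 4 kinases, or 81.5 ± 0.694% (SD, n = 2). Eif2ak2 held 8.27 ± 0.839%, Eif2ak4 5.96 ± 0.417% and Eif2ak3 4.26 ± 0.563% (SD, n = 2). Eif2ak1 was 4.56-fold and 4.27-fold above the other 3 summed, 9.91 ± 1.09-fold above Eif2ak2, 13.7 ± 1.08-fold above Eif2ak4 and 19.3 ± 2.39-fold above Eif2ak3 (SD, n = 2). These are shares of mRNA in the whole organ and say nothing of kinase protein or activity.

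The order among the low kinases depended on which transcripts were counted. Of the level of Eif2ak2, 52.6% in replicate 1 and 56.7% in replicate 2 belonged to Eif2ak2-204, a retained-intron transcript of 704 bases at the 5′ end of the gene (chromosome 17, 78873778 to 78882548). It carried only 89.3 and 105 expected counts, with posterior SDs of 9.14 and 9.44 counts, but its short effective length of 605 bases turned these into 4.52 and 5.71 TPM. The coding transcript Eif2ak2-201, of 4313 bases, carried 505 and 510 counts and had 3.67 and 4.00 TPM. Taking the leading coding transcript of each kinase, Eif2ak4 averaged 5.91 ± 0.304 TPM, Eif2ak3 4.59 ± 0.615 TPM and Eif2ak2 3.84 ± 0.233 TPM (SD, n = 2), so Eif2ak2 was the lowest and not the second of the kinases. Eif2ak1-201 then averaged 86.7 ± 0.318 TPM and its share of the kinases was 85.7% and 85.9%. This reading of the coding transcripts was added after the gene levels had been seen.

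The upstream windows of the haem-regulated kinase and of the ER kinase are printed because they were the kinase windows that held CCAAT boxes, the site of the factor NF-Y. The sequence is RefSeq's for GRCm38.p6 (mm10), up to 250 bases before the annotated start, and capitals mark CCAAT or its complement ATTGG.
Eif2ak1, chr5:143817542-143817787 (+): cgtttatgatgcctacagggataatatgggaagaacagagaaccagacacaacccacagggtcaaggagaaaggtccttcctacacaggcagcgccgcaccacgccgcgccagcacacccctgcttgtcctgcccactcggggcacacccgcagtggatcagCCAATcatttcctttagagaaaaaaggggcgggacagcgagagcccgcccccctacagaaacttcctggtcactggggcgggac
Eif2ak3, chr6:70844265-70844514 (+): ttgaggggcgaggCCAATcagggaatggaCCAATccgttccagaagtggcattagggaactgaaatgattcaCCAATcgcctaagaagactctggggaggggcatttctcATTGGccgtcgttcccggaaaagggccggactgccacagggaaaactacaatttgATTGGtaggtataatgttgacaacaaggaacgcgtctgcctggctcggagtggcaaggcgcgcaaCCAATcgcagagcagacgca
Searched on both strands from 250 bases before to 50 after the start, the window of Eif2ak3 held 6 CCAAT boxes, that of Eif2ak1 held 1, and those of Eif2ak2 and Eif2ak4 held 0. Of 32851 such windows, 37.4% held CCAAT at least once and 0.0791% (26 windows) held it 6 times or more. Among the other members Atf4 had 2 and Ddit3 had 1. The ER stress element, searched as CCAAT and CCACG with any 9 bases between them, was in 0.119% of all windows and in none of the windows of the members. A match is only a match of letters.

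The substrate and its exchange factor were well above the low kinases. Of 8 genes of eIF2 and eIF2B all 8 averaged 10 TPM or more, with a median of 62.0 TPM. Eif2s1, the alpha subunit that the kinases phosphorylate, had 237 TPM in replicate 1 and 222 in replicate 2. Eif2s2, the beta subunit, had 92.8 and 95.8 TPM, and the lowest of the list was the eIF2B subunit gene Eif2b3, with 46.3 and 46.2 TPM. Eif2s1 was thus above each of the kinases, Eif2ak1 included, in both libraries.

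Of 12 genes for regulators of the kinases, 12 averaged 1 TPM or more and 11 averaged 10 TPM or more (median 31.2 TPM). Hspa8 and Hsp90aa1, cytosolic chaperones that bind the haem-regulated kinase, were the highest, with 2157 ± 180 and 964 ± 63.7 TPM (SD, n = 2). The lowest was Adar, the editing enzyme that limits activation of PKR by cellular RNA, with 8.75 and 8.30 TPM. 3 more were picked after their values were seen, because they belong to activating routes of a kinase. The pick does not cover every such gene of the list. Prkra, with 10.6 and 10.9 TPM, was lower than the 3 and was not picked. Dele1, the mitochondrial protein that in human cells activates the haem-regulated kinase after cleavage, had 41.6 and 37.3 TPM. Oma1, the protease that cleaves it there, had 13.9 and 14.4 TPM, and Gcn1l1, the ribosome-bound activator of GCN2, had 31.9 and 30.7 TPM.

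Genes of the haem supply list were expressed in the same libraries as the haem-regulated kinase. The list is wider than its name, since it also holds Hmox1 (72.1 and 77.9 TPM), Bach1 (7.41 and 8.87 TPM) and an exporter gene. All 8 genes of the list averaged 1 TPM or more and 4 averaged 100 TPM or more (median 97.4 TPM). Fech, which puts iron into the porphyrin ring, had 657 and 688 TPM, and Alas2, the first enzyme of haem synthesis in red cell precursors, had 651 and 679 TPM. The haem exporter gene Flvcr1 was lowest, with 6.26 and 6.35 TPM.

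Both phosphatase subunits were expressed, and the inducible one was the higher. Ppp1r15a, or GADD34, which is itself induced downstream of ATF4 and brings protein phosphatase 1 to eIF2 alpha, lies on chromosome 7 at 45522916 to 45526268 (minus strand). It had 138 TPM in replicate 1 and 131 in replicate 2 (135 ± 5.11, SD, n = 2), above 95.9% of protein-coding genes. Ppp1r15b, or CReP, the constitutive subunit, lies on chromosome 1 at 133131143 to 133139783 (plus strand) and had 51.0 and 53.3 TPM (52.1 ± 1.64, SD, n = 2). The libraries of the pair did not overlap, and Ppp1r15a was 2.71-fold and 2.46-fold above Ppp1r15b. Read counts give the other order, with 7548 and 6888 counts for Ppp1r15a and 7871 and 7594 for Ppp1r15b, whose leading coding transcript is 5594 bases long, against 2333 bases for Ppp1r15a.

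Both also had a second transcript of note. Ppp1r15a-203, a 389-base transcript of the 3′ end with 384 and 297 counts, held 29.4% and 25.9% of the level of Ppp1r15a. Ppp1r15b-202, a processed transcript of 3688 bases without a coding frame, held 40.3% and 41.1% of the level of Ppp1r15b, from 2409 and 2380 counts with posterior SDs of 75.7 and 76.0. Taking the leading coding transcripts, Ppp1r15a-201 had 94.9 TPM in both libraries, against 30.4 and 31.4 TPM for Ppp1r15b-201, a ratio of 3.12 and 3.03. Both kinds of level thus put Ppp1r15a first.

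All 4 genes for the catalytic subunits of protein phosphatase 1 and for actin, the partners of these subunits in the phosphatase, averaged 100 TPM or more (median 336 TPM). Actb, the cytoplasmic actin, was highest at 6604 TPM, followed by Ppp1ca at 481 TPM, and Ppp1cb was lowest at 108 TPM.

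Atf4, the factor whose translation rises when eIF2 alpha is phosphorylated, lies on the plus strand of chromosome 15 at 80255184 to 80257541. Its level was 118 TPM in replicate 1 and 121 in replicate 2 (120 ± 2.47, SD, n = 2), from 6315 and 5998 counts, above 95.5% of protein-coding genes. Ddit3, or CHOP, a factor that ATF4 induces in prolonged stress, lies on the plus strand of chromosome 10 at 127290774 to 127296288. It had 17.1 TPM in each library, from 426 and 383 counts, with exact Poisson intervals of 15.5 to 18.8 and 15.4 to 18.9 TPM (95%, counting error only). Atf4 was 6.90-fold and 7.10-fold above Ddit3. Levels of mRNA do not show how much ATF4 protein was made.

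The coding transcript Atf4-201 held 95.3% and 95.6% of the level of Atf4. Ddit3 was divided, with 78.4% and 72.2% in Ddit3-201 and 12.2% and 19.8% in the shorter Ddit3-203. Of 8 bZIP genes for partners of ATF4, 7 averaged 1 TPM or more and 4 averaged 10 TPM or more (median 11.8 TPM). Nfe2l2, the antioxidant response factor, had 44.5 and 43.4 TPM, Nfe2l1, its relative that induces proteasome genes, had 22.4 and 27.1 TPM, and Jdp2 was lowest, with 0.14 and 0.21 TPM. None of the partners reached the level of Atf4.

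Leaders, the bases before the main start codon, are printed by their start codons because upstream starts are the feature by which Atf4 and Ddit3 are translated under stress. Each line has the 6 bases before ATG, ATG in capitals and the base after it, from GENCODE M21 transcripts on GRCm38, in 5′ to 3′ order along the transcript.
Atf4-201 upstream 1, chr15:80255303 (+): tctctcATGg
Atf4-201 upstream 2, chr15:80255582 (+): gccaccATGg
Atf4-201 upstream 3, chr15:80255681 (+): taagccATGg
Atf4-201 main, chr15:80256299 (+): cacaacATGa
Ddit3-201 upstream 1, chr10:127290829 (+): tatatcATGt
Ddit3-201 upstream 2, chr10:127290838 (+): ttgaagATGa
Ddit3-201 main, chr10:127295341 (+): gcagtcATGg
Ppp1r15a-201 upstream 1, chr7:45526234 (-): tggacgATGt
Ppp1r15a-201 upstream 2, chr7:45526190 (-): gattacATGc
Ppp1r15a-201 upstream 3, chr7:45526089 (-): ggcgacATGa
Ppp1r15a-201 main, chr7:45525382 (-): agacacATGg
Ppp1r15b-201 upstream 1, chr1:133131245 (+): cggcgaATGa
Ppp1r15b-201 upstream 2, chr1:133131468 (+): ttctctATGg
Ppp1r15b-201 upstream 3, chr1:133131517 (+): gccgggATGg
Ppp1r15b-201 main, chr1:133131747 (+): aaggagATGg
A purine 3 bases before ATG together with G after it, the strongest part of the Kozak context, was present at 3 of the 17 upstream starts of the members and at 4 of the 10 main starts. Upstream starts 2 and 3 of Atf4 were among the 3, and its main start was not among the 4. The contexts were not counted over the transcripts of other genes. Without that share, the counts say nothing particular of the members or of Atf4.

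Atf4-201 had a leader of 594 bases, longer than 96.6% of those of the 11109 genes whose leading coding transcript averaged 1 TPM or more, which had a median of 152 bases. Its upstream frame of 3 codons began 196 bases before the main start. The next frame, of 59 codons, began 97 bases before it and ran into the main frame to base 83. A further frame of 36 codons began at base −475. This is the known arrangement of a short frame that lets ribosomes resume scanning and a longer one that overlaps the start.

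Ddit3-201 had a leader of 186 bases with 1 upstream frame of 34 codons, beginning 131 bases before the main start, and a second ATG within the same frame. The second entry with the symbol Ddit3 in the annotation, 105 bases long, is the sequence of that frame. Its expected count was 0 in both libraries. Ppp1r15a-201 had frames of 45, 34 and 26 codons in 283 bases, and Ppp1r15b-201 had frames of 2, 8 and 51 codons in 604 bases. All of these ended before the main start.

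Over the members, 7 of 10 leading coding transcripts had 1 upstream ATG or more and 6 had 2 or more, and 3 (those of Atf4, Eif2ak2 and Eif2ak3) had an upstream frame that overlapped the main one. Of all 11109 leading coding transcripts, 46.8%, 24.6% and 15.2% did so. Length accounts for part of such a count by construction, so each gene was set beside genes whose leaders were within 20% of its own length. Among those, the share with an upstream ATG was 90.7% for Atf4, 91.6% for Ppp1r15b, 69.8% for Ppp1r15a, 53.5% for Ddit3, 54.8% for Eif2ak2, 58.5% for Eif2ak3 and 49.6% for Asns, the 7 members that had one. It was 30.6% for Eif2ak1, 25.7% for Eif2ak4 and 51.4% for Trib3, the 3 that had none. An upstream start is thus common among leaders of the length of each of the 7. The counts with 2 upstream ATGs or more and with an overlapping frame were not set beside leaders of like length.

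Among the kinases, those with an upstream start had the longer leaders. Eif2ak1-201, with a leader of 103 bases, and Eif2ak4-201, with 91 bases, had 0 upstream ATGs, as had Trib3-201 with 176 bases. Eif2ak2-201 had 1 in 190 bases, opening a frame of 65 codons that overlapped the main start, and Eif2ak3-201 had 3 in 211 bases, the first opening a frame of 154 codons that overlapped it too.

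**Figure D2:**
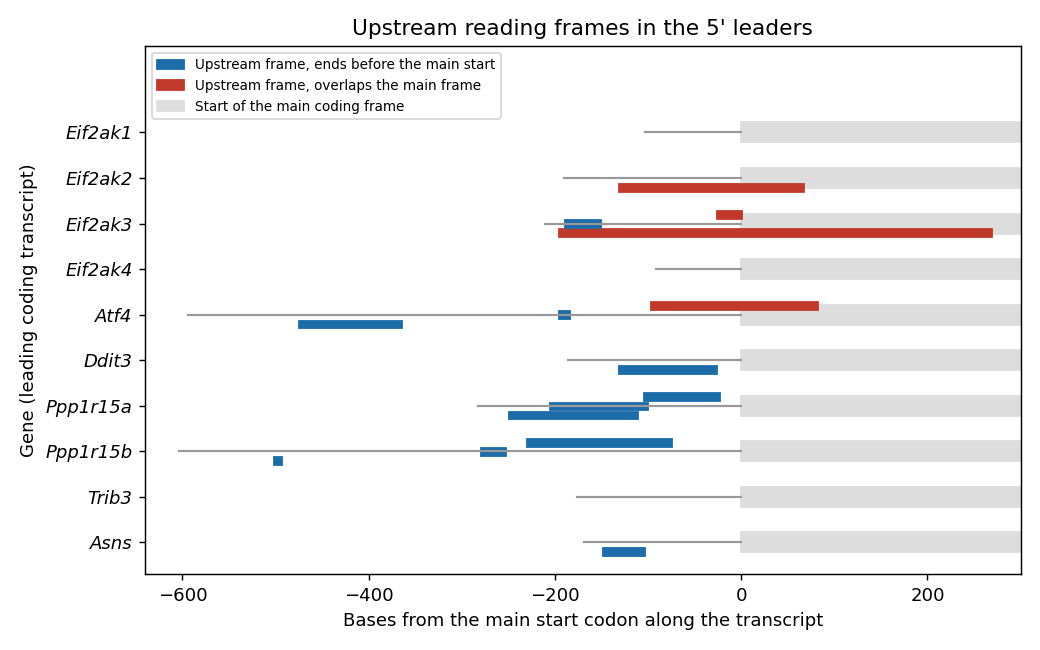
Leaders of the leading coding transcripts of the 10 genes, in bases before the main start codon at 0, with each upstream reading frame drawn as a bar, blue where it ends before the main start and red where it overlaps the main frame (grey). Atf4 and Ppp1r15b have the longest leaders at 594 and 604 bases, 3 genes have a red bar, and Eif2ak1, Eif2ak4 and Trib3 have no frame.

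Asns, or asparagine synthetase, a classic target of ATF4 under amino acid shortage, was the highest of the members. It lies on the minus strand of chromosome 6 at 7675169 to 7693254 and had 359 TPM in replicate 1 and 365 in replicate 2 (362 ± 3.98, SD, n = 2), from 20029 and 18647 counts. It ranked 270 among protein-coding genes. Asns-201 held 87.3% and 86.2% of this, and Asns-206, a processed transcript of 448 bases near the 3′ end, held 12.3% and 13.2%.

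Trib3, a pseudokinase induced by ATF4 and CHOP that restrains ATF4, was near the bottom. It lies on the minus strand of chromosome 2 at 152337422 to 152344032 and had 6.07 and 5.13 TPM (5.60 ± 0.665, SD, n = 2), from 382 and 291 counts. Its exact Poisson intervals were 5.48 to 6.71 and 4.56 to 5.75 TPM (95%). Asns was 59.2-fold and 71.1-fold above Trib3, a ratio of 65.1 ± 8.44 (SD, n = 2). Asns was thus the highest of the members and Trib3 among the lowest.

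Both have a match in letters to the C/EBP-ATF response element, the composite site bound by ATF4 with a C/EBP partner, next to the start. Binding was not measured. The element was searched as TGATGNAAN on both strands of the RefSeq windows. It is shown in capitals with 10 bases on each side, in the direction of the gene.
Asns, chr6:7693214-7693242 (-): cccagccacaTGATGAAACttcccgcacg
Trib3, chr2:152344029-152344057 (-): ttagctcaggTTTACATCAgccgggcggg
In Asns the element began 23 bases before the RefSeq start, and in Trib3 it began 13 bases after it on the opposite strand. Of 32851 windows, 3.95% held the element, and among the 9 members with a window these were the only 2. Ppp1r15b had no entry. The windows reach from 250 bases before to 50 after the start, so sites further away were not searched. The 2 annotations place the starts of both genes differently. GENCODE's Asns-201 starts 45 bases upstream of the RefSeq start, so the element falls in bases 23 to 31 of that transcript, and both upstream ATGs of Asns-201 overlap it. With the RefSeq start Asns has 0 upstream ATGs. GENCODE's start of Trib3-201 is 28 bases downstream of the RefSeq start, which puts the element of Trib3 15 to 7 bases before it.

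Other target lists spanned a wide range of levels. Of 10 amino acid synthesis genes, all 10 averaged 1 TPM or more, 8 averaged 10 TPM or more and 3 averaged 100 TPM or more (median 65.5 TPM). Phgdh, the first enzyme of serine synthesis, had 319 and 291 TPM and Psat1, the next, had 160 and 151 TPM. The lowest was Cbs, of the transsulphuration pathway, with 5.32 and 5.24 TPM. Phgdh was below Asns in both libraries.

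All 13 genes of the tRNA synthetase list, which are 12 synthetases and the tRNA exporter Xpot, averaged 10 TPM or more (median 77.6 TPM). Nars and Mars, for asparagine and methionine, were the highest, with 174 ± 2.90 and 161 ± 0.778 TPM, and Wars, for tryptophan, was the lowest, with 50.4 ± 1.80 TPM (SD, n = 2). Of 10 amino acid transporter genes, 9 averaged 1 TPM or more and 7 averaged 10 TPM or more (median 46.5 TPM). Slc43a1, a carrier of large neutral amino acids, had 129 and 136 TPM, and Slc3a2, the heavy chain of several carriers, had 118 and 111 TPM. Slc7a11, the cystine carrier, had only 0.16 and 0.30 TPM.

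The list of stress targets of ATF4 and CHOP was the lowest of the target lists. Of its 15 genes, 14 averaged 1 TPM or more but 11 averaged under 10 TPM and 0 reached 100 TPM (median 5.11 TPM). Its highest members were Eif4ebp1, a repressor of cap-dependent translation, with 94.0 and 87.1 TPM, and Gadd45a, a growth arrest gene, with 74.1 and 81.1 TPM. Fgf21, a hormone gene, had 0 counts in both libraries, which allows up to 3 counts in each. Trib3 would lie near the middle of this list.

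Genes of the other arms of the unfolded protein response were higher. All 12 averaged 1 TPM or more, 10 averaged 10 TPM or more and 4 averaged 100 TPM or more (median 63.5 TPM). Hspa5, the ER chaperone BiP, had 564 and 548 TPM, Hsp90b1, another ER chaperone, had 363 and 367 TPM, and the ER sensor gene Ern1 was lowest, with 5.70 and 5.56 TPM, close to the level of the ER kinase Eif2ak3.

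A list of genes that dissection and dissociation can induce was measured beside these. Of its 10 genes 8 averaged 1 TPM or more, 5 averaged 10 TPM or more and 0 averaged 100 TPM (median 6.90 TPM). The heat shock genes Hsph1 and Dnajb1 were highest, with 61.1 ± 4.22 and 56.5 ± 2.92 TPM (SD, n = 2), and the immediate early gene Fosb was lowest, with 0.04 and 0.03 TPM. The part of handling in the levels of Atf4, Ddit3, Ppp1r15a and Trib3 was not tested. Over the other 10 lists, 97 of 100 genes averaged 1 TPM or more, 75 averaged 10 TPM or more and 27 averaged 100 TPM or more.

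**Figure D3:**
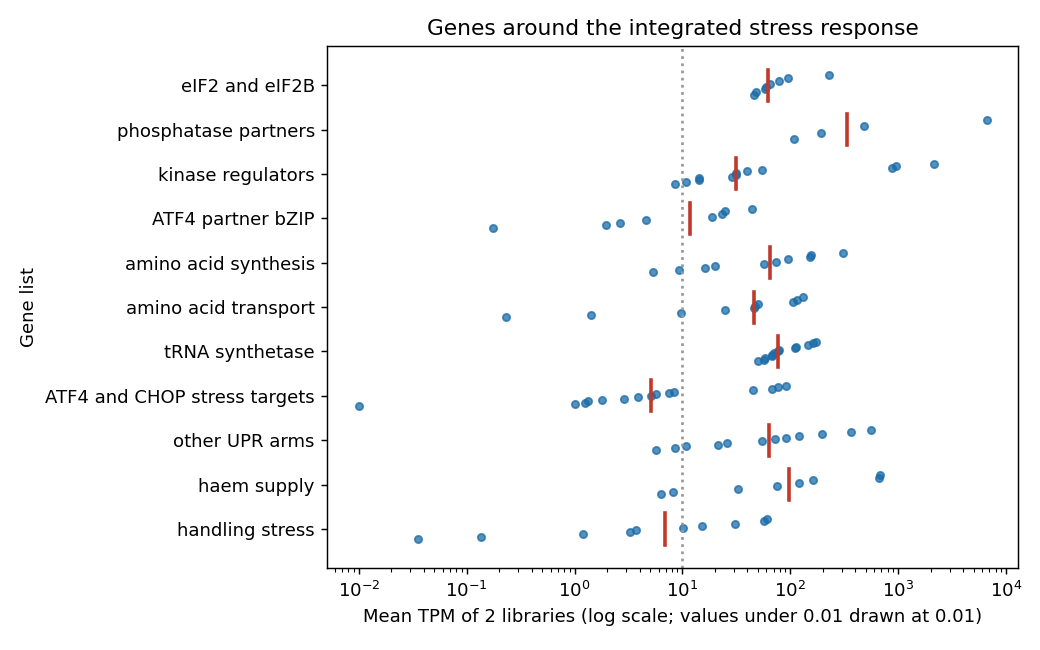
Mean TPM over both libraries for the genes of the 11 lists, on a log axis, with 1 point per gene, the list median as a red line, 10 TPM as a dotted line and values under 0.01 TPM drawn at 0.01. The tRNA synthetase list lies in a narrow band around 77.6 TPM, and the ATF4 and CHOP stress targets are spread lowest, around 5.11 TPM.

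Among the 41 annotated transcripts of the members, 15 held 10% or more of their gene in both libraries, 12 of them coding and 3 not. The members had 25 coding, 11 retained-intron and 5 processed transcripts in all. Among the members, coding transcripts held the smallest share of the level in Eif2ak2 (42.7% and 39.7%) and Ppp1r15b (59.7% and 58.9%). In Ppp1r15a they held 100% in both libraries, but this includes the 389-base Ppp1r15a-203. Ppp1r15a-201 alone held 68.7% and 72.5%. Such shares were not computed over all genes. The leading coding transcript held 94.2% and 94.5% of the level in Eif2ak1, 96.4% and 95% in Eif2ak3, 89.7% and 86.3% in Eif2ak4, and 100% and 96.3% in Trib3. Division of reads between transcripts of one gene is estimated and not counted.

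**Figure D4:**
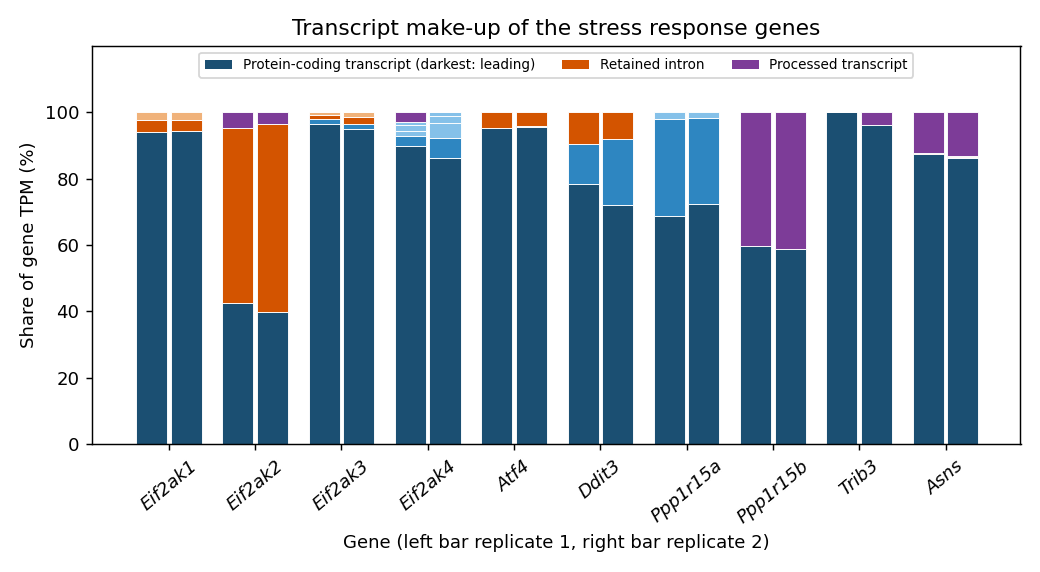
Share of each gene's TPM held by its transcripts, as stacked bars in percent, with replicate 1 left of replicate 2 for each of the 10 genes; blue is coding, orange retained intron and purple processed. Coding transcripts fill most of each bar except in Eif2ak2, where a retained-intron transcript holds 52.6% and 56.7%. In Ppp1r15b a processed transcript holds 40.3% and 41.1%.

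Some of the genes share exon bases with a neighbour, and whether the counting used strand is not given in the sources used here. Eif2ak1 shares 487 of 5670 exon bases with Aimp2 on the opposite strand, which had 69.4 and 69.5 TPM. Ddit3 shares 68 of 1713 exon bases with the methionyl-tRNA synthetase gene Mars, which had 162 and 161 TPM. Ppp1r15b shares 640 of 5594 with Gm26616, which had 0.67 and 0.58 TPM. The part of such reads in the levels of the 3 genes was not tested.

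The pools were compared gene by gene. With the expected counts scaled by edgeR's TMM factors, 0 of the 10 differed by over 2-fold between replicate 1 and replicate 2, against 2.38% of 17369 genes with a mean count of 10 or more. The share was 0.149% of the 12050 genes with a mean count of 100 or more, a range that holds all the members, so a count of 0 of 10 is near the background and says nothing particular of the members. The log2 ratios of replicate 1 over replicate 2 ran from −0.16 in Eif2ak2 to 0.28 in Trib3. Eif2ak3 had 0.26 (95% interval 0.10 to 0.42) and Trib3 0.28 (0.05 to 0.50), both higher in replicate 1, and Eif2ak4 had −0.15 (−0.28 to −0.03) and Ppp1r15b −0.06 (−0.11 to −0.02), both higher in replicate 2. These are the 4 members whose interval excluded an equal level under TMM scaling. The intervals are exact binomial intervals of the count split and cover counting error only, and over 17343 genes the libraries differed by more than sampling noise (chi-square per degree of freedom 3.745). Scaled by the spike-ins, all ratios moved up, since the median of all genes moved by 0.12 on the log2 scale, and the signs of Eif2ak1 (0.11), Atf4 (0.08), Ppp1r15b (0.06) and Asns (0.11) turned positive; relative to that shift they did not. Under spike-in scaling the interval excluded an equal level in 7 members, all higher in replicate 1: Ppp1r15b changed side, Eif2ak4 dropped out, and Eif2ak1, Atf4, Ppp1r15a and Asns were added.

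**Figure D5:**
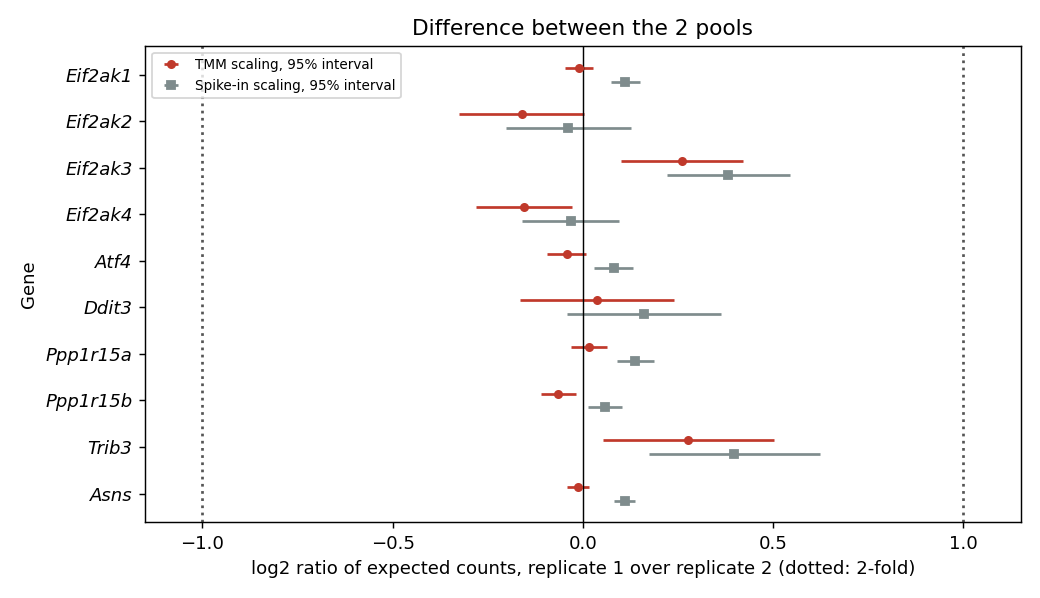
Log2 ratio of expected counts of replicate 1 over replicate 2 for the 10 genes, with 95% intervals of the count split, under TMM scaling (circles) and spike-in scaling (squares). All points lie well inside the dotted lines at 2-fold, Eif2ak3 and Trib3 lie to the right of 0 under both scalings, and the spike-in points lie 0.12 to the right of the TMM points.

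The same reads were also deposited as quantified with the older annotation GENCODE M4. Between M21 and M4, 0 of the 10 members moved by over 1.5-fold in both libraries, against 5.38% of 13620 genes. A count of 0 of 10 is near that share and says nothing particular of the members. Atf4 had 6315 and 5998 counts under M21, and 6193 and 5900 under M4. The log2 difference of Asns, M21 over M4, was −0.08 in both libraries.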

How the data were processed

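Poly-A RNA-seq of 2 pools of embryonic liver was analysed, 1 library per pool. Per the deposited notes and file headers, the authors quantified transcriptome alignments to mm10 per gene and transcript with GENCODE M21 and M4, giving expected counts, TPM and the percent of the gene held by each transcript, with posterior means and SDs. The sources used here do not name an aligner or quantifier. The deposited TPM values were used as they stand, on a scale that includes the spike-ins. Computed here were means and SDs, ranks, transcript shares, exact Poisson intervals, leaders from GENCODE M21 transcripts, and motif matches in RefSeq windows (9 of the 10 symbols matched). Expected counts were rounded and scaled with edgeR 4.0.16 (TMM, prior count 0.5); DESeq2 1.42.0 size factors were an alternative. A gene was called different between pools past 2-fold with the 95% interval outside the scaled split. That script was tested on counts simulated with counting error only, so the test does not cover the further spread between these pools. Annotations were compared as log2(TPM + 1). Depth limits values of the low members (291 counts for Trib3 in replicate 2). Named were all 10 members, transcripts at 10% or more in both libraries, and the 2 highest and the lowest gene of each list. The members and lists were chosen with earlier results of these data known. A comparison of the protein sequences was planned and is not analysed here. R 4.3.3 and Python 3.11.15 were used.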

Additional observations from a re-analysis of the deposited data

How the results depend on the processing

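Of 226 values recomputed under another setting, 65 were of the main results. Of these, 55 kept their direction and stayed within the spread between the pools (or, for counts, within 1.5-fold), 9 moved further and 1 reversed. Some of the 55 could not have moved. A share or ratio with 1 pool left out always lies within the SD of the 2 pools. Rescaling without spike-ins cancels out of shares and ratios. The share of Eif2ak1 among the kinases (81.5%) was 83.8% from counts scaled to library size (CPM) and 85.8% from leading coding transcripts. The log2 ratio of Eif2ak1 over the other 3 kinases (2.14) was 2.37 and 2.60, and that of Atf4 over Ddit3 (2.81) was 3.93 and 3.15. The log2 ratio of Ppp1r15b over Ppp1r15a (−1.37) was −1.62 from leading coding transcripts and reversed to 0.10 from CPM, which are not per length. The count of genes past 2-fold between the pools (414, with 175 higher in replicate 1 and 239 higher in replicate 2) was 753 of 27707 with no filter and 18 of 12050 (0.149%) at a minimum of 100 counts, the cause of which was not tested; with spike-in scaling it was 420, of which 242 were higher in replicate 1 and 178 in replicate 2. The leading coding transcript was an alternative chosen after the data had been seen. The order of the members was compared between settings only by the number of neighbouring pairs apart. That number was 8 by gene and 7 by leading coding transcript, although the order itself changed. No paired analysis was possible because there is a single group. Leaving out a pool leaves 1 value per gene and no difference between pools.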

Other observations

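The short second Ddit3 entry, with 0 expected counts and 0 TPM in both libraries, had posterior mean values of 6.14 TPM in replicate 1 and 5.39 TPM in replicate 2. Its effective length is 6 bases. The posterior mean and the TPM column thus differ for this entry although no read was given to it.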
